A study of Arabidopsis thaliana with 2 samples.

Results

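The genes described here are those of membrane traffic that the array's annotation names by 3 phrases: SNF7, ADP-ribosylation factor and Ras-related GTP-binding. Of the 21500 gene probes, 88 carried one of these phrases, each for a different locus. They were 14 SNF7 genes, 20 genes of the ADP-ribosylation factor (Arf) family, 49 Rab genes, 4 Ran genes and 1 gene (AT1G06210) described as a VHS and GAT domain protein that binds Arf. The label of membrane traffic does not hold for the Ran genes, which serve transport through the nuclear pore and share the Ras-related wording. For the other genes the label rests on the family name, and a role of each gene in traffic was not examined. The words that chose the genes came from the annotation, but the grouping was put forward with results of the same aluminium contrast known. The values of its members are therefore given as a description, with no test of the group.

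Seedlings of Arabidopsis thaliana Col-0 were kept for 10 days in hydroponics, in MGRL medium at 2% strength and pH 5.5 that also held 200 µM CaCl2. The temperature was 23 °C, and 12 h of each day were lit at 30 µmol m-2 s-1. Their roots then spent 6 h at pH 5.0 with 10 µM AlCl3, or at pH 5.0 without AlCl3 as the control. Both RNAs were hybridised together on a 2-colour Agilent array, in 2 replicates that the labels call biological, with the aluminium RNA in Cy3 on replicate 1 and in Cy5 on replicate 2. Dye, array layout, software version and replicate changed together and cannot be told apart. In the 4 channels, 94.4% to 96.4% of probes were read well above their background, and the number of arrays limits the precision. All 10 root markers examined were well above background in all 4 channels, and so were all 8 markers of green shoot tissue. The root markers were EXPA7, COBL9, IRT1, SHR, SCR, PLT1, WER, CASP1, NRT2.1 and ALMT1. How far each follows a root cell type or the treatment itself was not tested. Of these 10 genes, 7 were lower and 2 higher with aluminium at a limma adjusted p under 0.05. The medians of the 10 log2 ratios were -0.52 on replicate 1 and -0.53 on replicate 2. Of the green shoot markers 1 was lower and none higher by the same test, with medians of 0.06 and -0.03. In size the root markers' medians exceed the ratios of most members described below, and the part of either tissue's cells in the members' values was not tested. The RNA came from whole roots, so fewer cells of a type and less RNA per cell cannot be told apart.

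SNF7 proteins are the filament-forming subunits of the third endosomal sorting complex, ESCRT-III, which pinches off vesicles into the multivesicular body on the way to the vacuole. Arf proteins are small GTPases that recruit vesicle coats when bound to GTP, and Rab proteins are small GTPases that mark each compartment and call in the tethers with which vesicles dock. In roots these routes carry cell wall material, membrane transporters and auxin carriers to and from the plasma membrane.

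Ratios are log2 values of aluminium over control, and a mean is given with the SD over both arrays (n = 2). A gene is called where the limma fit over all 19194 genes tested gave a Benjamini-Hochberg adjusted p under 0.05. Of the 88 genes, 83 could be tested, and all 83 were well above background in all 4 channels. Of these 83, 23 were called higher (27.7%), against 8.25% of all genes tested, and 1 was called lower, against 6.48% of all genes. The remaining 59 were not called. Because the same contrast was known when the group was put forward, nothing is read from these shares. The ratio was above 0 on both arrays for 57 members (36.1% of all genes) and below 0 on both for 11 (35.3% of all genes), and 15 members had opposite signs on the arrays. The median ratio of the members was 0.25, at 0.30 on replicate 1 and 0.19 on replicate 2, where the median of all genes was 0.00.

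The calls depended on the normalization and on the source of the ratios. Centring each array on its median in place of loess gave 11 members higher (4.63% of all genes) and 0 lower (3.05% of all genes), and the scanner software's own log ratios gave 1 higher (0.886% of all genes) and 0 lower (0.615% of all genes). The authors' series matrix gave no member past the threshold in limma in either direction (0.0% of all genes). With it, 37 of 82 members had an unadjusted limma p under 0.05, as had 5073 of all 18659 genes tested. All 23 genes called higher were above 0 on both arrays in each of these sources, which start from the same arrays.

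The differences were small: member means ran from -0.52 to 1.26, and 33 of 83 lay within 0.2 of 0. Only VPS60.1 was at least 2-fold higher on both arrays, a size that 1.64% of all genes reached. The ratio was larger on replicate 1 for 60 of the 83 members, and for 18 of the 23 called higher. Over all 19194 genes tested it was larger there for 9693. Why the members differed in this was not tested. Across the 83 genes, which share the same 2 arrays, the ratios of the replicates correlated with Pearson's r = 0.808 and Spearman's rho = 0.809. The median SD over the arrays was 0.119 for members and 0.107 for all genes. The members were mostly bright: 59 of 83 had a signal over the median of all genes tested, and 21 of these 59 were called higher, where 12.0% of all genes that bright were called higher and 9.01% lower.

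**Figure D1:**
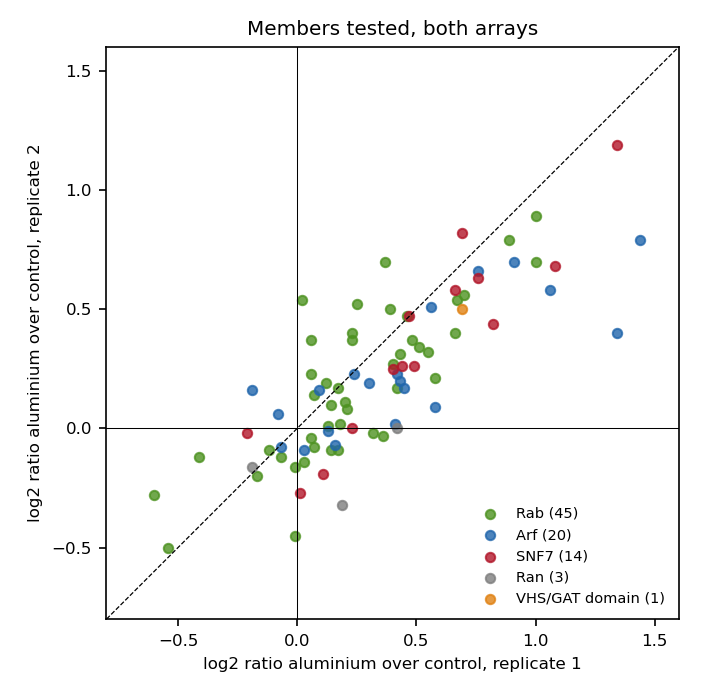
Log2 ratio of aluminium over control on replicate 1 (x axis) against replicate 2 (y axis) for the 83 members tested, 1 point per gene, coloured by family; the dashed line marks equal ratios. The top right corner holds the 57 genes above 0 on both arrays and the bottom left corner the 11 below 0 on both, and 60 points lie below the dashed line.

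The SNF7 genes had the highest family median. All 14 were tested: 7 were called higher, none lower, 11 were above 0 on both arrays, with a family median of 0.42 that split into 0.48 for replicate 1 and 0.35 for replicate 2. The genes can be set out by the subunit that they encode, and in 3 of the subunits with more than 1 gene (VPS2, VPS20 and VPS46) one gene was called and the others were not.

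VPS60 is a late-acting ESCRT-III subunit that binds LIP5, the activator of the ATPase that takes the filament apart. The normalised intensity of VPS60.1 (AT3G10640) was 3327 with aluminium and 1317 in the control on replicate 1, and 2449 against 1074 on replicate 2. The ratios of 1.34 and 1.19 gave a mean of 1.26 ± 0.10, or 2.40-fold. Its paralogue VPS60.2 (AT5G04850) had 1340 against 966 and 1106 against 795, a ratio of 0.47 on each array, and was also called.

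SNF7 itself is the main filament subunit. SNF7.1 (AT4G29160) had intensities of 2971 with aluminium and 1838 in the control on replicate 1, and of 2792 and 1587 on replicate 2, with a mean ratio of 0.75 ± 0.087. SNF7.2 (AT2G19830) had 3280 against 1854 and 1828 against 1345, with a mean of 0.63 ± 0.27. Both SNF7 genes were called. For SNF7.2 the control of replicate 1 was slightly brighter than the aluminium channel of replicate 2, as for some other called members such as VPS46.2 and VPS20.1. Intensities were not scaled between arrays, so only the difference within each array is read.

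VPS20 starts the filament and VPS2, together with VPS24, caps it. VPS2.1 (AT2G06530) had intensities of 8766 with aluminium and 4138 in the control on replicate 1, and of 4475 and 2793 on replicate 2. Its ratios of 1.08 and 0.68 gave a mean of 0.88 ± 0.28, the second highest of the family. The other VPS2 genes were near 0: VPS2.3 (AT1G03950) had ratios of 0.23 and 0.00, and VPS2.2 (AT5G44560) had -0.21 and -0.02. VPS20.1 (AT5G63880) had 1962 against 1243 and 985 against 657, a mean of 0.62 ± 0.053, and was called. VPS20.2 (AT5G09260) had ratios of 0.11 and -0.19 and was not called. Neither VPS24 gene was called, with ratios of 0.40 and 0.25 for VPS24.1 (AT5G22950) and of 0.01 and -0.27 for VPS24.2 (AT3G45000). VPS24.2 had the lowest mean of the family, at -0.13.

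VPS46, also named CHMP1, is required in Arabidopsis to sort auxin carriers into multivesicular bodies. VPS46.2 (AT1G73030) had intensities of 2328 with aluminium and 1373 in the control on replicate 1, and of 1101 and 713 on replicate 2, a mean ratio of 0.69 ± 0.095, and was called. VPS46.1 (AT1G17730) had ratios of 0.49 and 0.26 and was not called. The last member, AT3G62080, is described only as a SNF7 family gene, had ratios of 0.44 and 0.26, and was not called either.

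**Figure D2:**
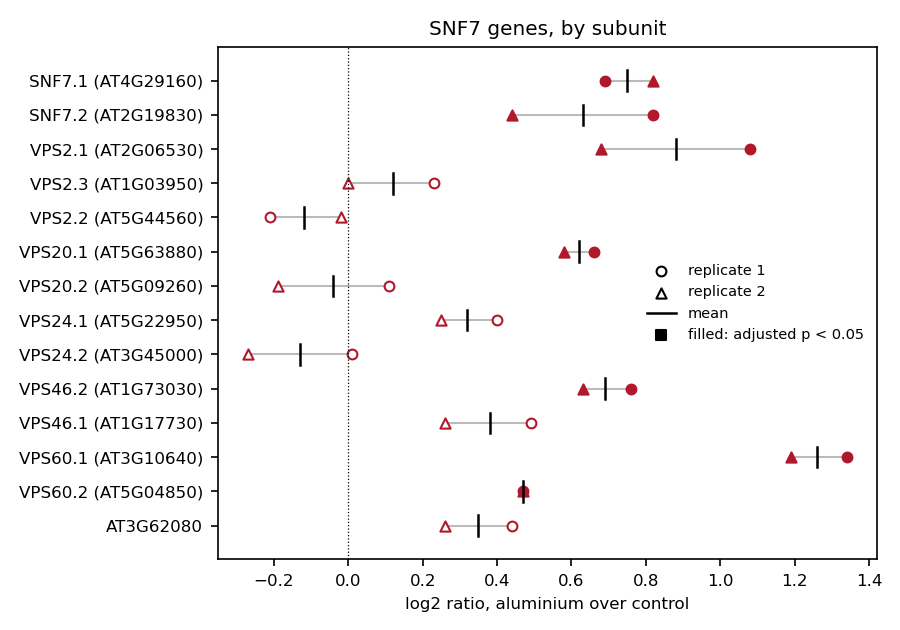
Log2 ratio of aluminium over control (x axis) of the 14 SNF7 genes, grouped by subunit, with a circle for replicate 1, a triangle for replicate 2 and a bar for the mean; filled symbols mark an adjusted p under 0.05. VPS60.1 stands farthest to the right at 1.34 and 1.19, and the 7 filled genes all lie above 0.4 on both arrays.

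Of the 20 Arf genes, all tested, 5 were called higher and none lower, 14 were above 0 on both arrays, with a median of 0.28 that split into 0.42 for replicate 1 and 0.18 for replicate 2. Means ran from -0.08 to 1.11. Class A Arfs are the highly conserved ones that recruit the COPI coat at the Golgi. Of the 6 in class A, only ARFA1D (AT1G70490) was called. Its intensity was 20884 with aluminium and 10040 in the control on replicate 1, and 11350 against 7612 on replicate 2, with a mean ratio of 0.82 ± 0.34. Of the other class A genes, 4 were above 0 on both arrays with means of 0.25 to 0.33, and ARFA1E (AT3G62290) had opposite signs, -0.19 and 0.16. Probe sequences were not used here, so how far a probe of one class A gene also reads its close copies was not tested.

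Classes B, C and D each had one called gene. ARFB1B (AT5G17060) had intensities of 1900 with aluminium and 1013 in the control on replicate 1, and of 1415 and 874 on replicate 2, a mean ratio of 0.80 ± 0.15. Of the other class B genes, ARFB1A had ratios of 0.42 and 0.23 and ARFB1C (AT3G03120) had 0.03 and -0.09. ARFC1 (AT3G22950), the single class C gene, had 2191 against 1292 and 1186 against 750, a mean of 0.71 ± 0.071. The arrays lay close together for both called genes, and farther apart for class D.

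ARFD1B (AT1G02430) had the highest mean of the Arf genes, at 1.11 ± 0.46, with intensities of 756 against 279 on replicate 1 and 604 against 350 on replicate 2. ARFD1A (AT1G02440), the next gene on chromosome 1, had 453 against 179 and 241 against 183, with ratios of 1.34 and 0.40, a mean of 0.87 ± 0.66, and was not called. Aluminium was brighter in both arrays for both class D genes, but the ratio on replicate 1 was far larger than on replicate 2. They had the widest spread among the Arf genes.

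The Arf-like genes were mostly near 0. GB1 (AT5G52210), an Arf-like gene with the synonym ARLB1, was the exception, with intensities of 1387 against 938 and 690 against 484, a mean ratio of 0.54 ± 0.038, and was called. The 4 ARLA1 genes, relatives of the lysosomal Arl8 of animals, had a median of 0.17 and none was called. TTN5 (the relative of Arl2, needed for embryo development) had ratios of -0.08 and 0.06, and ARF3 (AT2G24765, the relative of the Golgi protein Arl1) had -0.07 and -0.08. AT1G02620, described as SAR1A, the GTPase that starts the COPII coat at the endoplasmic reticulum, had 0.16 and -0.07. It has no symbol in RefSeq, and the gene named SAR1A in the list of coats below is another locus, AT1G09180. ARF3 had the lowest mean of the family, at -0.08. The VHS and GAT domain gene AT1G06210 had intensities of 1902 with aluminium and 1181 in the control on replicate 1, and of 1213 and 858 on replicate 2, a mean ratio of 0.59 ± 0.13, and was called.

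**Figure D3:**
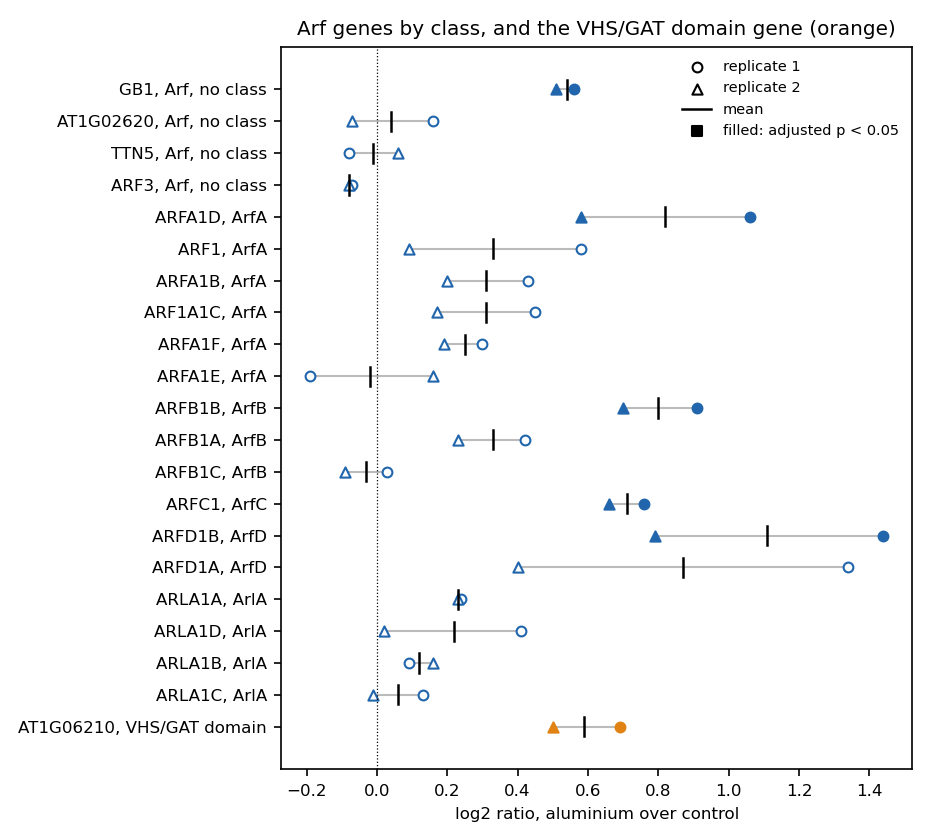
Log2 ratio of aluminium over control (x axis) of the 20 Arf and Arf-like genes by class, and of the VHS and GAT domain gene in orange, with a circle for replicate 1, a triangle for replicate 2 and a bar for the mean; filled symbols mark an adjusted p under 0.05. The class D genes reach 1.44 and 1.34 on replicate 1 but 0.79 and 0.40 on replicate 2, while ARFC1 and GB1 differ little between arrays.

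Of the 49 Rab genes, 45 were tested: 10 were called higher and 1 lower, 30 were above 0 on both arrays and 8 below on both, with a median of 0.17 that split into 0.20 for replicate 1 and 0.17 for replicate 2. Means ran from -0.52 to 0.94. Plant Rabs fall into 8 subclasses, A to H, each with its own stretch of the route.

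RabD proteins (Rab1 in animals) act between the endoplasmic reticulum and the Golgi, and RabD had the highest subclass median, 0.85 over 3 genes. RAB1C (AT4G17530, also RABD2c) had intensities of 3374 with aluminium and 1690 in the control on replicate 1, and of 2839 and 1534 on replicate 2, a mean ratio of 0.94 ± 0.077, the highest of all Rab genes. RAB1A (AT5G47200, also RABD2b) had 6155 against 3077 and 4130 against 2550, a mean of 0.85 ± 0.22. Both were called, whereas ATFP8 (AT3G11730, also RABD1), the third RabD gene, had ratios of -0.01 and -0.16. RabB (Rab2) acts on the same early route. GB2 (AT4G35860, also RABB1b) was called with ratios of 0.37 and 0.70, and RABB1a had 0.32 and -0.02.

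RabG proteins (Rab7) act at the vacuole, the end of the pathway that ESCRT-III feeds. Of 6 tested, 2 were called higher and the median was 0.37. RAB7A (AT2G21880, also RABG2) had intensities of 353 against 217 on replicate 1 and 293 against 199 on replicate 2, a mean ratio of 0.63 ± 0.10. RAB7B (AT3G18820, also RABG3f) had 3088 against 1954 and 2354 against 1779, a mean of 0.53 ± 0.18. RABG3d, RABG3A and RABG3E had means of 0.40, 0.34 and 0.30 and were not called, and RABG3c was near 0 at -0.05. The Rab5 group, RabF, marks the multivesicular body. Its single member here, ARA7 (RABF2b), had ratios of 0.51 and 0.34 and was not called.

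RabA (Rab11) is the largest subclass in plants and acts at the trans-Golgi network, in secretion and in tip growth. Its genes spread on both sides of 0. Of 19 tested, 3 were called higher and 1 lower, and the median was 0.15. RABA1e (AT4G18430) had intensities of 1334 with aluminium and 722 in the control on replicate 1, and of 821 and 475 on replicate 2, a mean ratio of 0.84 ± 0.070. RABA1g (AT3G15060) had ratios of 0.67 and 0.54, and RABA4C (AT5G47960) had 0.48 and 0.37. The only member called lower was RABA5b (AT3G07410), with 380 against 551 on replicate 1 and 247 against 349 on replicate 2, a mean of -0.52 ± 0.026. In each array its aluminium signal was the lower one. RABA6a (AT1G73640) had the next lowest mean, -0.44 ± 0.23, from -0.60 and -0.28, and was not called.

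The RABA1 group alone held the whole spread of the subclass except its lowest genes: beside RABA1e and RABA1g, RABA1c had a mean of 0.30, RABA1f 0.15 and RABA1d -0.01. RABA1b had -0.17 and -0.20 on the arrays, and ARA-2 (RABA1a) had -0.01 and -0.45. In the RABA4 group, RABA4C was called, RABA4a had a mean of 0.37, and RABA4B, whose product sits in the tips of growing root hairs, had 0.10. RABA4C, RABA4a and RABA4B were each above 0 on both arrays.

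Of the remaining subclasses, RabC (Rab18) had a median of 0.43 over 3 genes. RABC2A (AT5G03530) was called with ratios of 0.39 and 0.50, and RAB18 and RABC2b had means of 0.43 and 0.38 without being called. RabH (Rab6) works at the Golgi, and its 5 genes had a median of 0.07. RABH1c (AT4G39890) was called with ratios of 0.46 and 0.47, and RABH1d (AT2G22290), at -0.41 and -0.12, was the third lowest Rab gene. RabE (Rab8) carries vesicles from the Golgi to the plasma membrane. Its 3 genes had means between -0.11 and 0.12, and none was called. The 3 genes with no subclass had a median of 0.10 and none was called.

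**Figure D4:**
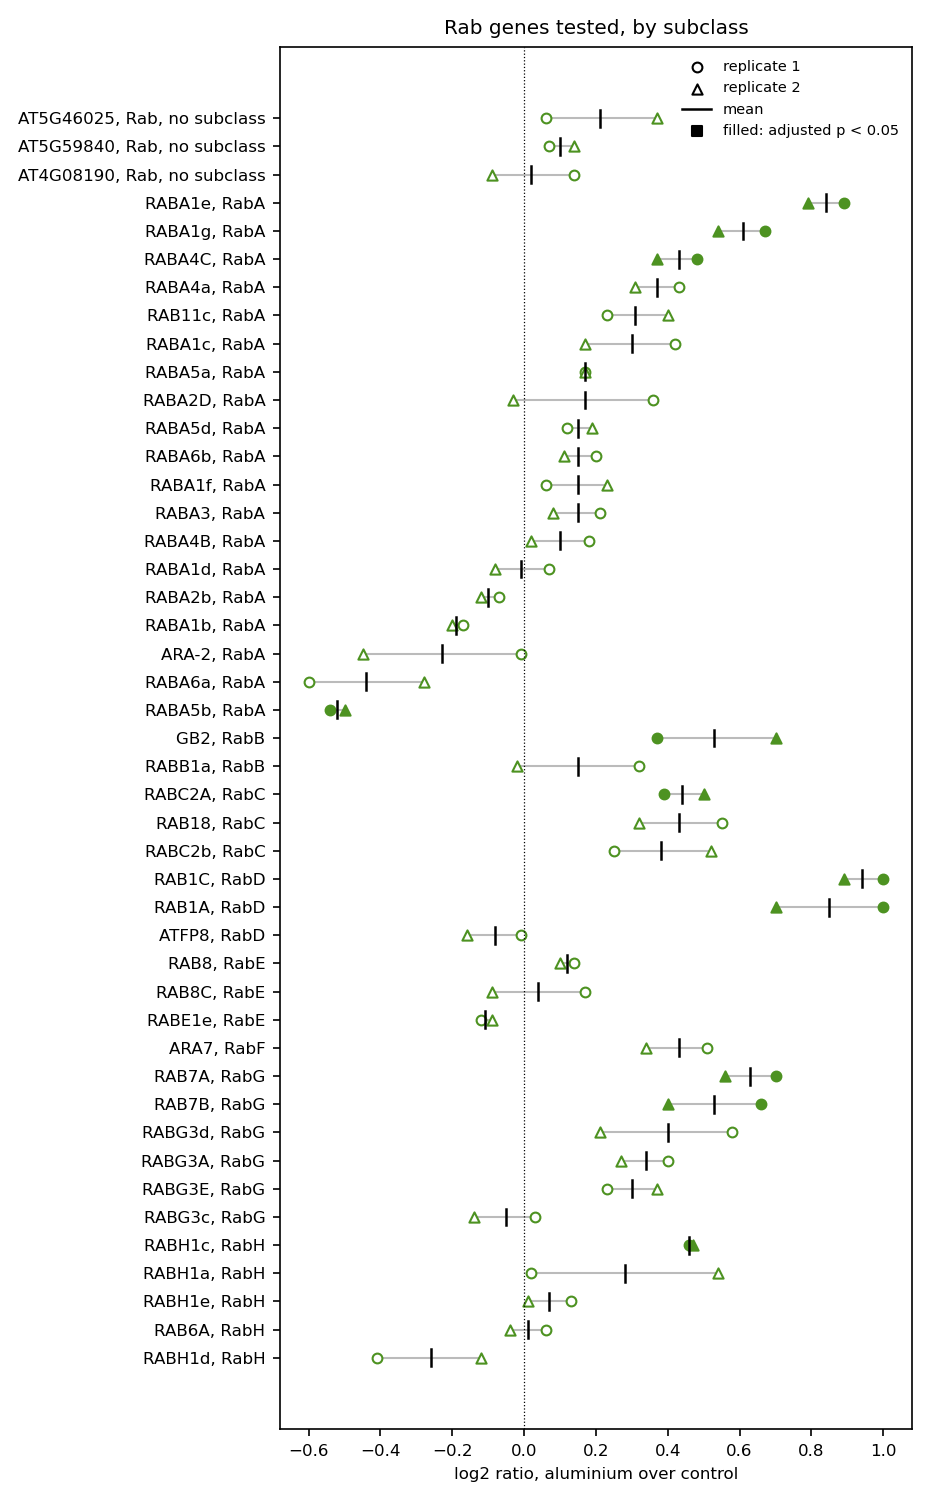
Log2 ratio of aluminium over control (x axis) of the 45 Rab genes tested, by subclass, with a circle for replicate 1, a triangle for replicate 2 and a bar for the mean; filled symbols mark an adjusted p under 0.05. RAB1C and RAB1A of RabD lie farthest to the right, RABA5b is the only filled gene to the left of 0, and the RabE genes stay near 0.

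The Ran genes were nearer to 0, with a median of -0.07 over the 3 tested. None was called in limma, and 0 had an unadjusted p under 0.05. RAN-1 (AT5G20010) had ratios of 0.42 and 0.00, RAN2 (AT5G20020) 0.19 and -0.32, and RAN3 (AT5G55190) -0.19 and -0.16. RAN-1 and RAN2 had the larger ratio on replicate 1, where both were above 0, and RAN3 was below 0 on both arrays.

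The 5 members left out of the test were dim. RABG1 was not well above background in any of the 4 channels, RABA1i was so only in the aluminium channel of replicate 2, and RABA4D, ArRABA1h and RAN4 were so in both channels of replicate 2 but in neither of replicate 1. RABA4D is known from pollen tubes. No fold is given for these genes.

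Genes that work with the members were taken from 8 lists of the same pathway, with the members removed. The lists too were chosen with earlier results of these data known, so their counts are a description. Over all genes tested, 8.25% were called higher and 6.48% lower, and 36.1% were above 0 on both arrays. The other ESCRT genes act with the SNF7 genes on the same vesicles. Of 14 tested, 5 were called higher and none lower, all 14 were above 0 on both arrays, and the median was 0.28. The ESCRT-I subunit gene VPS37-1 (AT3G53120) rose by 0.99 ± 0.094 (limma, adjusted p = 0.00674), ELC-Like (AT5G13860), a VPS23 relative of ESCRT-I, by 0.67 (limma, adjusted p = 0.0142), and AT1G20110, the plant-specific ESCRT gene FREE1, by 0.64 ± 0.12 (limma, adjusted p = 0.0196). AT2G36680, the second VPS37 gene, rose by 0.60 ± 0.12 (limma, adjusted p = 0.0218), and AT1G15130, the ALIX gene, was the fifth.

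Next came the genes for proteins that load and unload Arf and Rab. Called higher were 0.0% of Arf exchange factors, 7.14% of proteins that switch Arf off and 16.7% of Rab regulators. Over all genes tested it was 8.25%, and with so few genes in each list nothing is read from these shares. None of the 8 exchange factor genes for Arf was called in the limma fit. Of the 8, 3 had an unadjusted limma p under 0.05, as had 5885 of all 19194 genes tested. ATMIN7 had the highest mean of the 8, 0.31, from 0.21 and 0.40. Of 14 genes for proteins that switch Arf off, only ZAC (AT4G21160) was called, higher by 0.63 ± 0.043 (limma, adjusted p = 0.0167), and the list's median was -0.06. Among 6 regulators of Rab, GDI2, which returns Rab proteins from membranes to the cytosol, rose by 0.42 ± 0.058 (limma, adjusted p = 0.0456), and REP, the escort protein for Rab prenylation, had 0.45 and 0.35 (limma, adjusted p = 0.0522). The 11 genes of the ROP branch of small GTPases, which are not part of the vesicle machinery itself, had a median of 0.03, and none was called in the limma fit (1 had an unadjusted p under 0.05).

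The last 3 lists hold the tethers and fusion proteins that act with Rab proteins, and a mixed list of coats, retromer and dynamins. That mixed list is not limited to coats that Arf recruits. Medians were 0.17 for SNARE and SM genes, 0.09 for exocyst genes and 0.27 for coats, retromer and dynamins. Of 45 SNARE and SM genes tested, 10 were called higher and 1 lower. SEC1B (AT4G12120), of the SM family, rose by 1.76 ± 0.30 (limma, adjusted p = 0.00409), and SYP121 (AT3G11820), the plasma membrane syntaxin also known as PEN1, by 1.54 ± 0.34 (limma, adjusted p = 0.00597). SNAP33 (AT5G61210), the partner of SYP121, rose by 0.73 ± 0.16 (limma, adjusted p = 0.0160). Of 26 exocyst genes tested, 4 were called higher and 1 lower, with EXO70E2 at 1.03 ± 0.30 (limma, adjusted p = 0.0125) and EXO70H1 at -0.57 ± 0.19 (limma, adjusted p = 0.0320). Of 30 genes for coats, retromer and dynamins, 9 were called higher and none lower, and 28 were above 0 on both arrays. AT3G08530, a clathrin heavy chain gene, rose 2.15-fold (limma, adjusted p = 0.00507).

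Some Rab genes carry other wording on the array and were therefore not members. A list of 11 loci outside the rule with Rab names in RefSeq, made after the data had been seen, had 10 tested. Of these, 1 was called higher and 2 lower, and the median was 0.21. RABA2c had 0.63 and 0.38 (limma, adjusted p = 0.0417) and RABG3B had -0.40 on each array (limma, adjusted p = 0.0493). The other gene called lower, RABE1b (AT4G20360), had -0.63 and -0.58. It is in the list by its Rab symbol only, since the array describes it as the chloroplast elongation factor Tu. RHA1, the second RabF2 gene beside ARA7, had 0.54 and 0.26 and was not called.

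**Figure D5:**
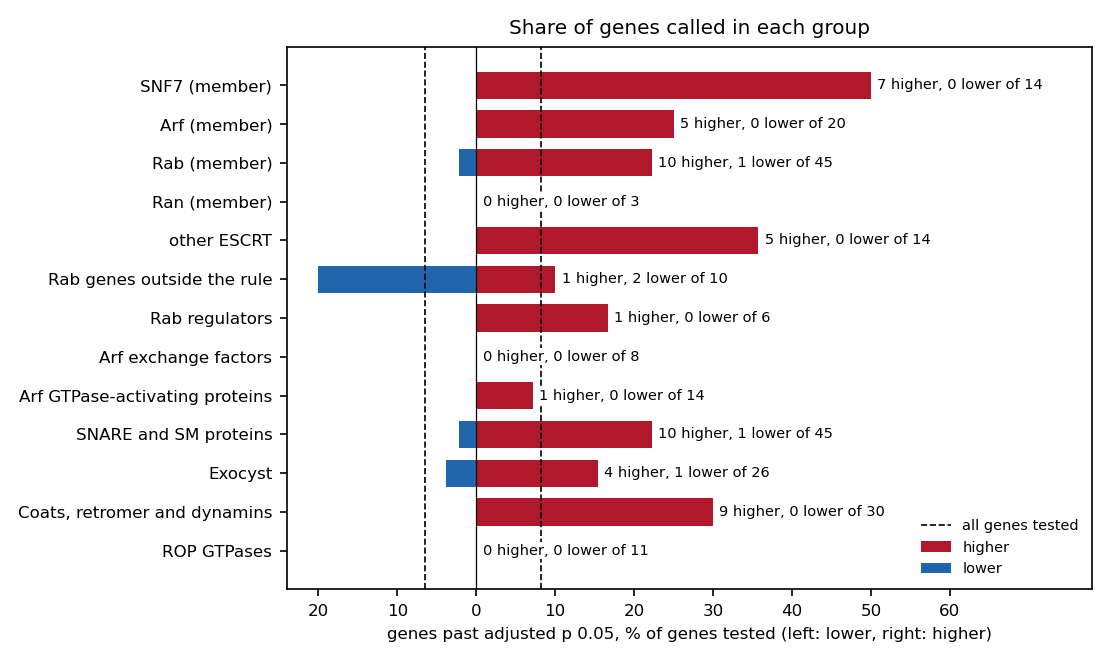
Share of tested genes past adjusted p 0.05 in each family of members and in each wider list, higher to the right and lower to the left; dashed lines mark the shares over all genes tested (8.25% higher and 6.48% lower). SNF7 genes have 7 of 14 called higher and other ESCRT genes 5 of 14. The Ran (3 tested), ROP (11 tested) and Arf exchange factor genes (8 tested) have none, in groups too small to set against the share over all genes. All shares are a description, since results of the contrast were known when the members and the lists were chosen.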

How the data were processed

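The authors deposited scanner files with spot intensity values per channel, not normalized, made per the file headers with Feature Extraction 8.1.1.1 (replicate 1) and 7.1.1 (replicate 2, rounded to 3 significant digits), whereas the submitters' processing notes name 9.5.1.1. The same deposited files hold the scanner's log10 ratio and flag columns, whose marks for saturation, outliers and signal over background are the software's own score of each spot per the file headers. The authors also deposited a series matrix of log2 values that run as aluminium over control when compared with the scanner ratios (r = 0.998 and 0.887 over 20346 probes; medians -0.0103 and -0.0112). How it was normalized and centred is not given in the sources used here.

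Background was corrected by normexp (offset 50) and each array was normalized by loess in limma 3.58.1 (R 4.3.3), the 736 and 1075 control spots having weight 0, and the ratio of replicate 1 was turned. Of 21500 probes, 108 had an outlier mark, 1151 more were too dim (on each array, at least 1 channel had to be well above background), and 1047 had no locus shared by the layouts. The remaining 19194 genes, 1 probe each, were tested with lmFit and eBayes against 0, two-sided, with Benjamini-Hochberg adjustment (1583 higher, 1243 lower, 1 residual and 4.06 prior degrees of freedom). A dye term would leave no residual degree of freedom. The procedure was tested on simulated ratios, drawn with the fitted spread and independent errors. Dye and array effects were not simulated, so that test gives no support to the calls made here.

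Members were found by the phrases in the annotation of replicate 1's array and matched by probe name. The same phrases find 23 of the 88 in the older annotation of replicate 2's array. All 88 had an entry in RefSeq's table for TAIR10.1, which gave symbols (82 members), synonyms and gene order only. The genome build is not given in the sources used here, so no coordinates are given. Probe, promoter and protein sequences were not used here. The members and the 8 lists (186 loci) were chosen with earlier results of these data known. The naming rule takes every called member with the same sign on both arrays, the 3 highest and 3 lowest of SNF7, Arf and Rab, the members left out of the test, and up to 4 genes with the smallest p of each list. Members named to complete a subclass, AT1G15130 and AT1G09180 were chosen after their values were seen. Alternatives covered background correction, normalization, the source of the ratios, the dim filter, the prior variance and each replicate left out.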

Additional observations from a re-analysis of the deposited data

How the results depend on the processing

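With no background correction, without the dim filter, with the filter on all 4 channels, and with a prior variance that follows signal, all 23 members called higher were called again, as was RABA5b. Other settings moved the counts. Median centring gave 1475 genes called over all genes in place of 2826, 11 members higher (4.63% of all genes) and 0 lower. The scanner's own log ratios gave 288 genes, 1 member higher (0.886% of all genes) and 0 lower. With them, 39 members had an unadjusted limma p under 0.05, as had 5204 of all 19194 genes tested. The series matrix gave 0 genes, 0 members higher and 0 lower in limma, with 5073 genes and 37 of 82 members under an unadjusted p of 0.05, the smallest adjusted p being 0.0535. The fits also differed in their prior degrees of freedom: 4.06 in the main fit, 2.39 with the scanner's ratios and 2.18 with the series matrix. With median centring they were infinite, so all genes shared the same variance and the spread between a gene's own arrays did not count. How far this moved the counts was not tested. Of the 23 genes, 10, 1 and 0 were called again under median centring, the scanner's ratios and the series matrix. All 23 were above 0 on both arrays under each of the 7 settings. The dim filters and the prior variance leave the ratios unchanged, so under those settings the signs were fixed in advance. The other settings start from the same arrays on which the 23 were called, so the shared signs are a description. The median of the Rab genes was 0.19 with the scanner ratios, and over 6 settings the family medians were 0.41 to 0.46 (SNF7), 0.24 to 0.33 (Arf) and 0.15 to 0.19 (Rab). Leaving out a replicate gave medians of 0.35 to 0.48 (SNF7), 0.18 to 0.42 (Arf) and 0.17 to 0.20 (Rab), and, with 1 array and no residual degree of freedom, no calls. No separate paired analysis was added, because both treatments share each array. Each ratio already lies within a replicate, so the test of the 1 group of ratios against 0 is itself paired. The medians of the wider lists kept their sign under all settings, except for the ROP genes (-0.01 to 0.04).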

Other observations

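Among the members, 5 pairs of tested genes lie next to each other in the RefSeq gene order. ARFD1B and ARFD1A, both of class D, had means of 1.11 and 0.87. The other pairs were less alike or near 0: ARLA1B and ARLA1C had 0.12 and 0.06, and RAN-1 and RAN2 had 0.21 and -0.07. In the pairs that join different Rab subclasses, RAB8C had 0.04 beside RABC2A at 0.44, and RABE1e had -0.11 beside RABC2b at 0.38. Probe cross-reaction between neighbours was not tested.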
